A study of Mus musculus with 4 samples.

Results

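The 9 genes described here are the chemokine receptors Cxcr4, Cxcr5, Ccr6 and Ccr7, the lipid receptors S1pr1, S1pr4 and Gpr183, the adhesion molecule Pecam1 and the transcription factor Klf2. They were taken by name from a table of 34866 genes in 4 RNA-seq libraries. Each was found under 1 identifier, and all 9 passed the filter for testing. The libraries came from 2 mice that bore IgM+ Tom+ tumors, here tumor #1 and tumor #2, and from each spleen B220+ IgM+ cells were sorted into Tom+ and Tom- cells. Every group thus carried the λ-MYC transgene, in which a translocated human MYC gene lies under λ light chain regulatory sequences, with a Cre knock-in allele and Rosa26tdTom +/ki. In these mice Cre switches on tdTomato for good, so Tom+ reports that Cre was expressed at some time and does not tell past from present expression. Each tumor is 1 mouse, and the age of these mice was not given in the sources used here.

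B cells find their place in lymphoid tissue through receptors coupled to G proteins. CXCR4 binds CXCL12 and holds B cells in the bone marrow and in the dark zone of the germinal center. CXCR5 binds CXCL13 and draws them into follicles, while CCR7 (ligands CCL19 and CCL21) and GPR183 (EBI2, an oxysterol receptor) draw activated cells to the follicle's borders. CCR6, the receptor for CCL20, is known from naive and memory B cells. S1PR1 senses sphingosine 1-phosphate (S1P) and carries lymphocytes out of tissue, S1PR4 is a further S1P receptor of blood cells, and KLF2 is a transcription factor that is known to act on S1pr1 in lymphocytes. PECAM1 (CD31) is an adhesion molecule of leukocytes, platelets and endothelium.

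Levels are given as TPM (transcripts per 1000000), which take gene length into account, so that genes can be set side by side. Each library sums to 1000000, its depth in reads is unknown, and counting error has neither an interval nor a floor here. Immunoglobulin genes took between 5.35% and 9.76% of TPM, mitochondrial genes between 6.61% and 15.6%, and pseudogenes between 23.4% and 31.3%, with the mitochondrial share higher and the pseudogene share lower in both libraries of tumor #2. All 10 B cell markers reached 1 TPM in at least 1 library.

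The promoters of 3 members are shown because their transcripts differ most in pattern. Gpr183 had the largest difference between Tom+ and Tom- cells, Ccr6 went from near 0 in one tumor to detectable in the other, and Cxcr4 had the highest level. Each run holds the 250 bases before the RefSeq start on GRCm38.p6, 5′ to 3′ along the gene, and capitals mark the core CACCC of KLF factors on either strand (GGGTG on the other).
Gpr183 (chr14:121965194-121965443, minus strand): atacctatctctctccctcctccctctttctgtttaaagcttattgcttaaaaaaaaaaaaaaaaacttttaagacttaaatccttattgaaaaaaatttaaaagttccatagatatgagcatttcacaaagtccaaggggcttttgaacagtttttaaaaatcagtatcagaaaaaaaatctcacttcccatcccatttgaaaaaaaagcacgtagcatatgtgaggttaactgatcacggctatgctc
Ccr6 (first of the listed starts, chr17:8235793-8236042, plus strand): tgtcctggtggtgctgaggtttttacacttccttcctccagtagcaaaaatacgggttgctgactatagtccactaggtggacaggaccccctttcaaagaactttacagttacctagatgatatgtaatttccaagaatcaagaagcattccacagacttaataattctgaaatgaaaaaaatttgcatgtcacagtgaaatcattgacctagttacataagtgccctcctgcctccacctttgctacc
Cxcr4 (chr1:128592300-128592549, minus strand): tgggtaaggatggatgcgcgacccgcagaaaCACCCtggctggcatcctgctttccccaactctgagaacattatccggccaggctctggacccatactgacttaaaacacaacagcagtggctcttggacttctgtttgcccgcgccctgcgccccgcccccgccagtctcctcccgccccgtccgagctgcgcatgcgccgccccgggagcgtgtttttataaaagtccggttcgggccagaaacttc
The windows of Gpr183 and Ccr6 held no match, and that of Cxcr4 held 1. The promoters of Klf2 and S1pr4 held 1 each as well. Of all 32851 promoters in the RefSeq table, 52.0% had at least 1 match, so the core is common in windows of this length. The letters GTAAACA of FOXO factors (3.17% of all promoters) and the E-box CACGTG of MYC and MAX (6.02%) were in none of the windows of these 5 members. The G and C content was 32.0% for Gpr183, 41.2% for Ccr6 and 61.2% for Cxcr4, against a median of 52.4% over all promoters. A match of letters is a description of the window and not a bound site, and no binding was measured. The table held 5 of the 9 members, and Cxcr5, Ccr7, S1pr1 and Pecam1 were not among them.

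Cxcr4 (ENSMUSG00000045382, chromosome 1, 128588199 to 128592293) was the most abundant member in each of the 4 libraries (positions are whole genes on GRCm38). Tumor #1 had 60.4 TPM (Tom-) and 50.7 TPM (Tom+), and tumor #2 had 85.7 TPM (Tom-) and 95.2 TPM (Tom+). These levels lay above those of 84.7% to 91.7% of the protein-coding genes with at least 1 TPM in any library. Pecam1 (ENSMUSG00000020717, chromosome 11, 106654217 to 106750628) came next in each library, with 14.4 TPM (Tom-) and 14.2 TPM (Tom+) in tumor #1 beside 49.7 TPM (Tom-) and 43.9 TPM (Tom+) in tumor #2. In tumor #1 Klf2 stood before S1pr1 in this order, and in tumor #2 S1pr1 stood before Klf2. Ccr7 kept rank 5 in every library. Cxcr5, Ccr6 and Gpr183 closed the order in tumor #1, each at or below 1.21 TPM. In tumor #2 the last places belonged to Cxcr5, S1pr4, Ccr6 and Gpr183. With 1 library per sort and tumor, neighbors in this order could not be separated by a test.

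**Figure D1:**
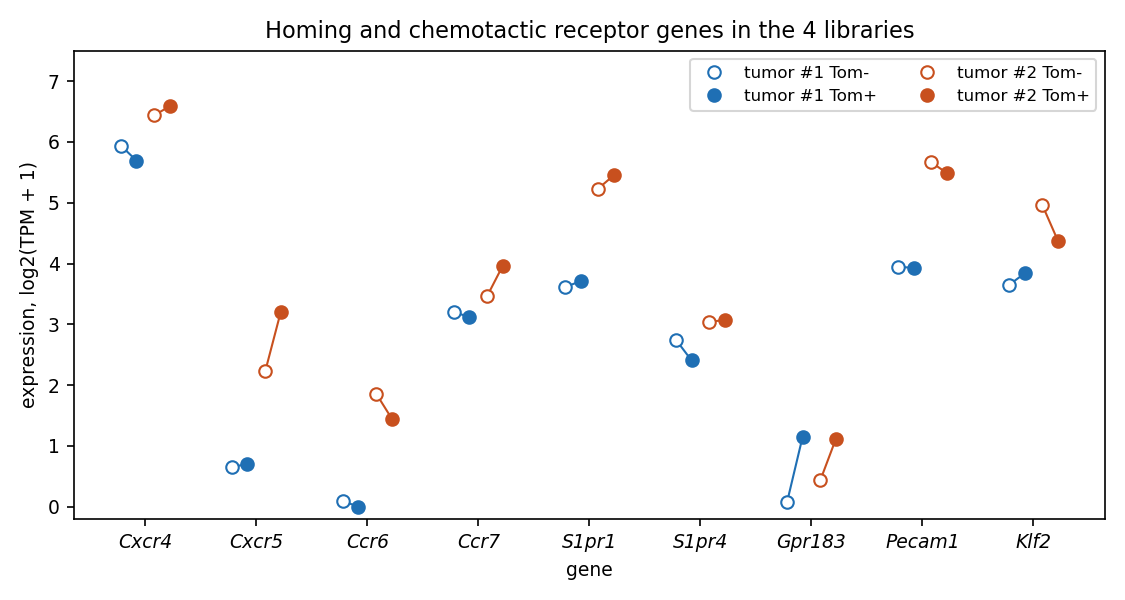
Expression of the 9 genes on the log2(TPM + 1) scale, with 1 point per library, open for Tom- and filled for Tom+ cells, and a line joining the cells of 1 tumor. For each gene but Gpr183, both points of tumor #2 lie above both points of tumor #1 (as for 44.8% of all tested genes), and only the lines of Gpr183, Cxcr5 and S1pr1 go up in both tumors.

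The study asked how cells with this history differ from the other lymphoma cells of the same mouse. On the log2(TPM + 1) scale, on which changes of low genes are understated, 0 of the 9 members passed an adjusted p-value of 0.05 between Tom+ and Tom- cells. The test came from limma, moderated and blocked by tumor, and was fitted and adjusted over 11339 genes with at least 1 TPM in at least 2 libraries. Over all of these genes 0 passed (0%), with a smallest adjusted p-value of 0.936. At an unadjusted p-value below 0.05 stood 530 genes (4.67%), and 1 of the 9 members, Gpr183. Of these 530, 231 genes (2.04% of those tested) were higher in Tom+ cells. An exact permutation within 2 pairs cannot go below p = 0.5, so such a test of a single gene could not reach 0.05.

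Gpr183 (ENSMUSG00000051212, chromosome 14, 121952551 to 121965195), the oxysterol receptor EBI2, had the largest difference of the members. The Tom- libraries had 0.0508 TPM (tumor #1) and 0.352 TPM (tumor #2), and the Tom+ libraries 1.21 TPM (tumor #1) and 1.16 TPM (tumor #2). Both Tom+ libraries were above both Tom- libraries, although all 4 values were low, at most at the level of 14.8% of the protein-coding genes. The log2 fold change was 0.88 (SE 0.27, 95% interval 0.05 to 1.70), from 1.07 in tumor #1 and 0.68 in tumor #2, with an unadjusted p-value of 0.0433 and an adjusted p-value of 0.936 from limma. Gpr183 reached the limit for testing in the Tom+ libraries and in no other, so its being tested already required a difference, and it adds no support on that ground. With pseudocounts of 0.5 and 0.1 in place of 1, the log2 fold change was 1.30 and 2.30, and with the latter the unadjusted p-value was 0.0627. The gene lies within Ubac2 on the opposite strand with no exons in common, and Ubac2 was at 15.3 to 23.3 TPM.

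Cxcr5 (ENSMUSG00000047880, chromosome 9, 44511787 to 44561877), the follicle-homing receptor, was next in size. Tumor #1 had 0.577 TPM (Tom-) and 0.623 TPM (Tom+), whereas tumor #2 had 3.68 TPM (Tom-) and 8.21 TPM (Tom+). The difference thus lay in 1 tumor, 0.04 in tumor #1 and 0.98 in tumor #2, with a mean of 0.51 (SE 0.34, adjusted p = 0.936, limma). Its exons overlap those of Bcl9l on the opposite strand, which ranged from 1.14 to 2.20 TPM and was likewise higher in both libraries of tumor #2. The sources used here do not say whether reads were assigned by strand, and without that, reads from the bases in common cannot be told apart.

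Ccr7 and Cxcr4 went in opposite directions in the tumors. Ccr7 (ENSMUSG00000037944, chromosome 11, 99144196 to 99155077) was close in tumor #1 (8.19 TPM in Tom-, 7.69 TPM in Tom+) and higher in Tom+ cells of tumor #2 (10.1 TPM in Tom-, 14.6 TPM in Tom+). The mean log2 difference was 0.21 (SE 0.24, adjusted p = 0.943, limma). Cxcr4 had a log2 fold change of -0.05 (SE 0.17, 95% interval -0.58 to 0.48, adjusted p = 0.989), from -0.25 in tumor #1 and 0.15 in tumor #2. Ccr6 (ENSMUSG00000040899, chromosome 17, 8236043 to 8257141) was at 0.0649 TPM in Tom- cells and listed at 0 in Tom+ cells of tumor #1, whereas tumor #2 had 2.62 TPM (Tom-) and 1.73 TPM (Tom+). It was lower in Tom+ cells of both tumors (log2 fold change -0.25, SE 0.26, adjusted p = 0.937).

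Among the S1P receptors, S1pr1 (ENSMUSG00000045092, chromosome 3, 115710433 to 115715072) was slightly higher in Tom+ cells of both tumors. Tumor #1 had 11.2 TPM (Tom-) and 12.1 TPM (Tom+), tumor #2 36.6 TPM (Tom-) and 42.8 TPM (Tom+), with a mean log2 difference of 0.16 (SE 0.16, adjusted p = 0.936, limma). S1pr4 (ENSMUSG00000044199, chromosome 10, 81497747 to 81500132) was lower in the Tom+ cells of tumor #1, 4.30 against 5.70 TPM, and almost level in tumor #2, 7.42 against 7.20 TPM (mean log2 difference -0.15, SE 0.22, adjusted p = 0.953). Klf2 (ENSMUSG00000055148, chromosome 8, 72319033 to 72321656) differed from S1pr1 in direction in tumor #2. There Klf2 was at 30.1 TPM in Tom- and 19.8 TPM in Tom+ cells, beside 11.5 TPM (Tom-) and 13.3 TPM (Tom+) in tumor #1. Its log2 fold changes of 0.19 in tumor #1 and -0.59 in tumor #2 gave a mean of -0.20 (SE 0.27, adjusted p = 0.949). Pecam1 was lower in Tom+ cells of both tumors, by very little (log2 fold change -0.10, SE 0.16, adjusted p = 0.954).

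In all, 3 members were higher in Tom+ cells of both tumors (Gpr183, Cxcr5 and S1pr1), where 21.6% of all tested genes were, and 2 were lower in both (Ccr6 and Pecam1), where 29.5% were. The other 4, Cxcr4, Ccr7, S1pr4 and Klf2, went in opposite directions. The median log2 fold change of the members was -0.05, with -0.02 in tumor #1 and 0.15 in tumor #2, beside -0.03, -0.0029 and -0.06 over all tested genes. Among B cell markers, 7 of 9 tested were lower in Tom+ cells of both tumors, with a median of -0.25, and the plasma cell gene Jchain was at 209 TPM in Tom+ cells of tumor #2 and at most 1.72 TPM elsewhere. Their part in the members' values was not tested.

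**Figure D2:**
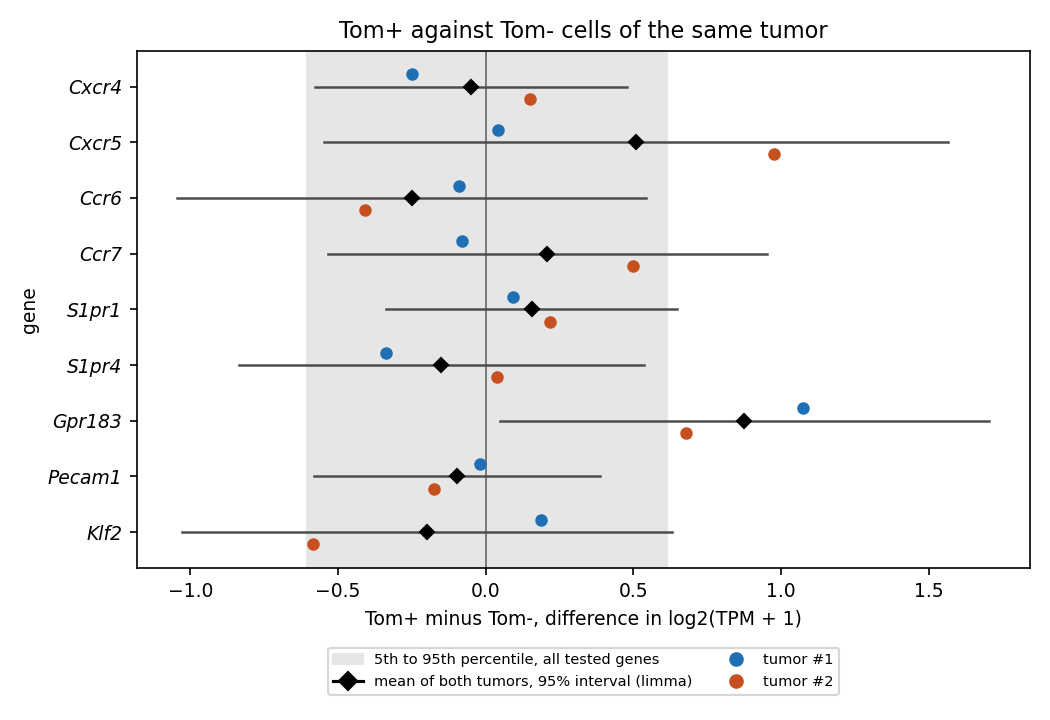
Difference between Tom+ and Tom- cells in log2(TPM + 1) for each member in tumor #1 (blue) and tumor #2 (orange), with the mean of both and its 95% interval from limma (black). Only the mean of Gpr183, at 0.88, lies outside the grey band, which runs from -0.61 to 0.62 (percentiles 5 and 95 of all tested genes). By construction the band leaves out 5% of tested genes on either side. Gpr183 reached 1 TPM in its Tom+ libraries alone and was tested on account of it.

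In 8 of 9 members the difference between the tumors was larger than that between Tom+ and Tom- cells, as for 76.7% of all tested genes. In 8 members, all but Gpr183, both libraries of tumor #2 were above both of tumor #1, and 0 members showed the opposite. Of all tested genes 44.8% were higher in tumor #2 in this way and 23.7% in tumor #1. For 5 members (Cxcr5, Ccr6, S1pr1, Pecam1 and Klf2) the mean of tumor #2 was in addition at least 2 times that of tumor #1, as for 20.6% of all tested genes. The tumors are 1 mouse each, and the libraries of a mouse are not replicates of a kind of tumor, so these are descriptions of 2 animals, with no test. Ccr6 and Cxcr5 reached 1 TPM in tumor #2 alone and were tested on account of it. With these and Gpr183 set aside, 6 members had a mean of at least 5 TPM, and all 6 were higher in tumor #2, as were 42.2% of the 8153 genes with such a mean. Means at least 2-fold apart were found for 3 of these 6 and for 14.8% of those genes.

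S1pr1 and Pecam1 had the most even differences. S1pr1 was 3.26 times as high in tumor #2 as in tumor #1 in Tom- cells and 3.55 times in Tom+ cells, and Pecam1 3.45 and 3.09 times. Klf2 was 2.61 times as high in Tom- cells but 1.49 times in Tom+ cells. Cxcr5 was 6.37 times as high in Tom- and 13.2 times in Tom+ cells, from levels below 1 TPM in tumor #1. The ratio of the means was smaller for Cxcr4 (1.63), Ccr7 (1.55) and S1pr4 (1.46). The log2 differences between the tumors were 0.50 in Tom- and 0.90 in Tom+ cells for Cxcr4, 0.27 and 0.85 for Ccr7, and 0.29 and 0.67 for S1pr4. These 3 genes were thus closer between the tumors in Tom- than in Tom+ cells. On the log2(TPM + 1) scale, the differences between the means of the tumors ran from 0.17 for Gpr183 and 0.48 for S1pr4 to 1.68 for S1pr1 and 2.04 for Cxcr5. The median was 0.93, against 0.20 over all tested genes.

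This median of all genes depended on how the libraries were scaled. It was 0.20 with the values as deposited, 0.04 after trimmed-mean scaling and -0.08 after quantile normalization. With trimmed-mean scaling the same 8 members were higher in both libraries of tumor #2, where 36.1% of all genes were. After quantile normalization 6 members were, with 29.8% of all genes, and Ccr7 and S1pr4 then overlapped. Gpr183, which overlapped in each case, had a difference of -0.39 there. S1pr1, Pecam1, Cxcr5 and Ccr6 kept differences of 1.43, 1.41, 1.56 and 1.21. Of these, Cxcr5 and Ccr6 were tested on account of tumor #2 alone, so their order between the tumors adds no support under any scaling.

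Markers of several cells went with the difference between the tumors, and their part in it was not tested. The summed level of the 10 B cell markers ran from 2481 and 2316 TPM (tumor #1) to 5162 and 5999 TPM (tumor #2), of which Ighm alone gave 1333 and 1255 TPM and then 2191 and 3652 TPM. The 10 marginal zone markers, S1pr1 among them, summed to 168 and 167 TPM against 189 and 178 TPM, but Mzb1, also a plasma cell gene, carried most of tumor #1's sum and was lower in tumor #2. Without Mzb1 the sums were 22.9 and 23.1 TPM against 93.9 and 97.4 TPM. S1pr1, itself a member, gave 11.2 and 12.1 TPM against 36.6 and 42.8 TPM of this, so the sums are no separate measure. Of the 8 tested, 7, S1pr1 among them, were higher in both libraries of tumor #2, as were 44.8% of all tested genes. The median log2 difference was 1.71. Cnr2 reached 1 TPM in tumor #2 alone and was tested on account of it. The 10 follicular markers, which include Cxcr5, Ccr7, Klf2, S1pr1 and Gpr183 and so are no separate measure, summed to 225 and 202 TPM against 461 and 466 TPM. The 11 germinal center markers had similar sums, at most 23.6 TPM, made up of genes that differed in opposite directions. Neil1 alone gave 11.3 and 13.6 against 8.61 and 14.1 TPM, and without it the sums were 9.77 and 9.98 against 13.4 and 9.33 TPM. Only 5 of the 11 reached 1 TPM in any library, and Rgs13 was listed at 0. Of the 5 tested, 1 was higher in both libraries of tumor #2 and 2 in both of tumor #1, beside 44.8% and 23.7% of all tested genes. Il21r was at 0.678 and 0.483 against 4.73 and 5.54 TPM, and S1pr2 at 1.11 and 2.05 against 0.201 and 0.142 TPM. Each reached 1 TPM only in the tumor where it was higher and was tested on account of it. The 12 T and NK cell markers summed to 1.60 and 1.62 against 8.72 and 5.05 TPM, and the 14 myeloid markers at 11.3 and 11.5 against 27.5 and 22.2 TPM. Cd3d alone gave 7.77 and 2.09 TPM in tumor #2, and without it the T and NK cell markers summed to 1.27 and 1.57 against 0.943 and 2.96 TPM. Without Ly6c2 the myeloid markers summed to 0.784 and 1.00 against 9.28 and 1.09 TPM. The 8 plasma cell markers summed to 182, 181 and 132 TPM, and to 344 TPM in Tom+ cells of tumor #2. Jchain alone gave 209 TPM of this last sum and at most 1.72 TPM elsewhere. Mzb1 went the other way in tumor #2, at 94.8 TPM (Tom-) and 80.6 TPM (Tom+). In bulk libraries, fewer cells of a type and less RNA per cell cannot be told apart. For Pecam1, which endothelium and platelets also make, the 14 endothelial and stromal markers summed to between 0.744 and 1.62 TPM, with 0 of 14 reaching 1 TPM and Emcn listed at 0. The 7 platelet and megakaryocyte markers summed to between 0.296 and 2.54 TPM, highest in Tom+ cells of tumor #1, and Pf4 and Ppbp were listed at 0 throughout. Erythroid markers ran the other way, at 21.5 and 17.6 against 0.619 and 0.967 TPM. In these pairs Tom- stands before Tom+, and tumor #1 before tumor #2.

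**Figure D3:**
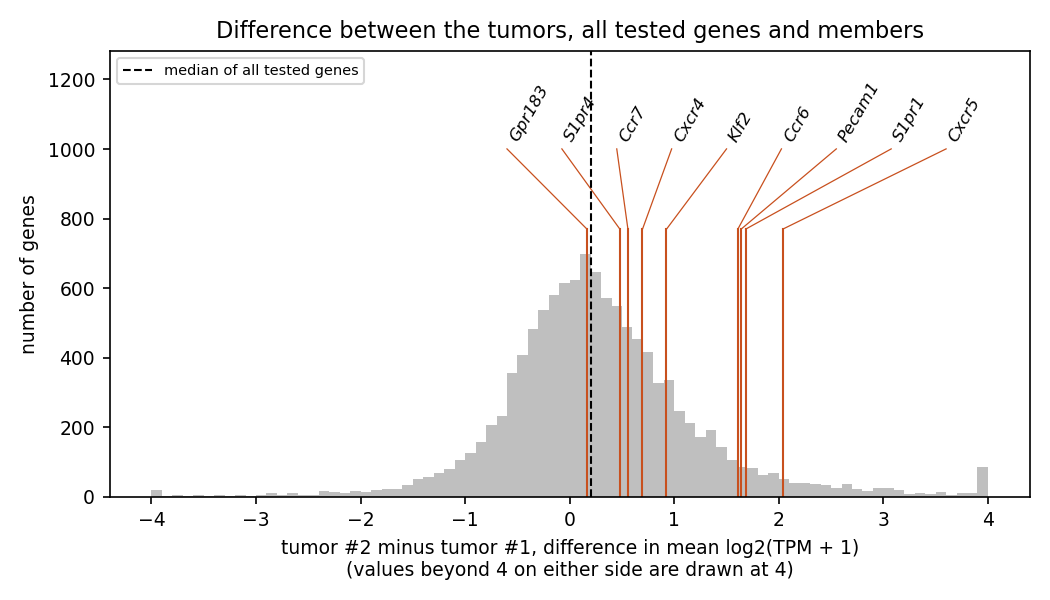
Number of genes by the difference between the mean log2(TPM + 1) of tumor #2 and tumor #1, for all 11339 tested genes (grey), with the 9 members as lines. All members lie right of 0, from 0.17 for Gpr183 to 2.04 for Cxcr5, and 8 lie right of the median of all genes, 0.20 (dashed).

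Few other receptors of the same kind were detected. Of 19 further chemokine receptors 4 reached 1 TPM in any library, 3 were tested and 6 were listed at 0 in all 4, Cxcr3 and Ccr8 among them. Ccr2 was near 0 in tumor #1 but reached 1.83 TPM (Tom-) and 2.35 TPM (Tom+) in tumor #2, and Cxcr2 was at most at 1.14 TPM.

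Of 17 further lipid and orphan receptors, 8 were tested and 0 passed, adjusted or not (0% and 4.67% of all tested genes). In 7 of these 8, both libraries of tumor #2 were above both of tumor #1, as for 44.8% of all tested genes. The median difference of the 8 was 1.46. Cnr2, Gpr18 and Gpr174 reached 1 TPM in tumor #2 alone, and S1pr2 in tumor #1 alone. They were tested on account of it, so their order between the tumors adds no support. Gpr132, a receptor linked to lysolipids, had the highest mean over the 4 libraries, between 3.75 and 5.36 TPM in tumor #1 but between 14.1 and 14.9 TPM in tumor #2. Lpar5, a receptor of lysophosphatidic acid, was at 4.96 and 1.99 TPM and at 5.08 and 5.47 TPM, and Gpr174 was detected mainly in tumor #2 (1.15 and 2.68 TPM). S1pr2, the S1P receptor that confines germinal center B cells, was the exception, with 1.11 TPM (Tom-) and 2.05 TPM (Tom+) in tumor #1 but 0.201 TPM (Tom-) and 0.142 TPM (Tom+) in tumor #2. It was thus opposite to S1pr1 and S1pr4 in its order between the tumors.

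Adhesion molecules held 25 genes, of which 19 were tested and 0 passed, with or without adjustment (0% and 4.67% of all tested genes). In Tom+ cells of both tumors 5 were higher and 9 were lower, beside 21.6% and 29.5% of all tested genes. Cd24a was the most abundant, at 463 to 532 TPM. The largest differences were those of Itgav (0.82, SE 0.31), Itgb2, the β chain of LFA-1 (-0.46, SE 0.21), and Spn, which encodes CD43 (-0.45, SE 0.19), each with an adjusted p of 0.936. Of 24 genes for ligands, their synthesis or removal, 9 were tested, and Ccl19, Ccl20, Ccl21a and the oxysterol enzymes Ch25h and Cyp7b1, which make the ligand of GPR183, were listed at 0 in all libraries. Dpp4, a protease that cuts chemokines, was the highest (29.0 to 64.1 TPM). Cyp27a1, a sterol hydroxylase, was lower in the Tom+ cells of each tumor, 0.456 against 1.44 TPM and 9.80 against 17.3 TPM (mean log2 difference -0.75, SE 0.21, unadjusted p = 0.0326, adjusted p = 0.936, limma). Sphk2, a kinase that makes S1P, had a log2 fold change of 0.25 (SE 0.21).

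The relay below the receptors was present almost in full, with 33 of 34 genes tested. Rac2, a GTPase of blood cells that moves the actin skeleton, led with 658 to 840 TPM. Gnb2, a G protein β subunit, was lower in Tom+ cells of both tumors, 95.8 against 123 TPM and 88.2 against 120 TPM (mean log2 difference -0.40, SE 0.13, unadjusted p = 0.0486, adjusted p = 0.936, limma). It was 1 of the 33 tested genes of this list below an unadjusted p of 0.05, beside 4.67% of all tested genes. Fermt3, which activates integrins, was lower in both as well (-0.39, SE 0.16), and Pik3cg differed in direction (0.69 and -1.17). Of genes that switch receptors off, 13 of 19 were tested and 0 passed, and the receptor kinase Grk2 was the highest at 631 to 1056 TPM. Rgs10 (0.58, SE 0.25), Rgs19 (-0.48, SE 0.31) and Rgs2 (0.44, SE 0.26) had the largest differences, and Rgs13 was listed at 0. Of 19 regulators 17 were tested and 0 passed. In each tumor's Tom+ cells 2 were higher and 7 lower, beside 21.6% and 29.5% of all tested genes. Ebf1 (-0.55, SE 0.19), Klf3 (-0.38, SE 0.22) and Foxp1 (-0.25, SE 0.13), each lower in both tumors, differed most, and Foxp1 had the highest mean over the 4 libraries, with 73.5 to 114 TPM.

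**Figure D4:**
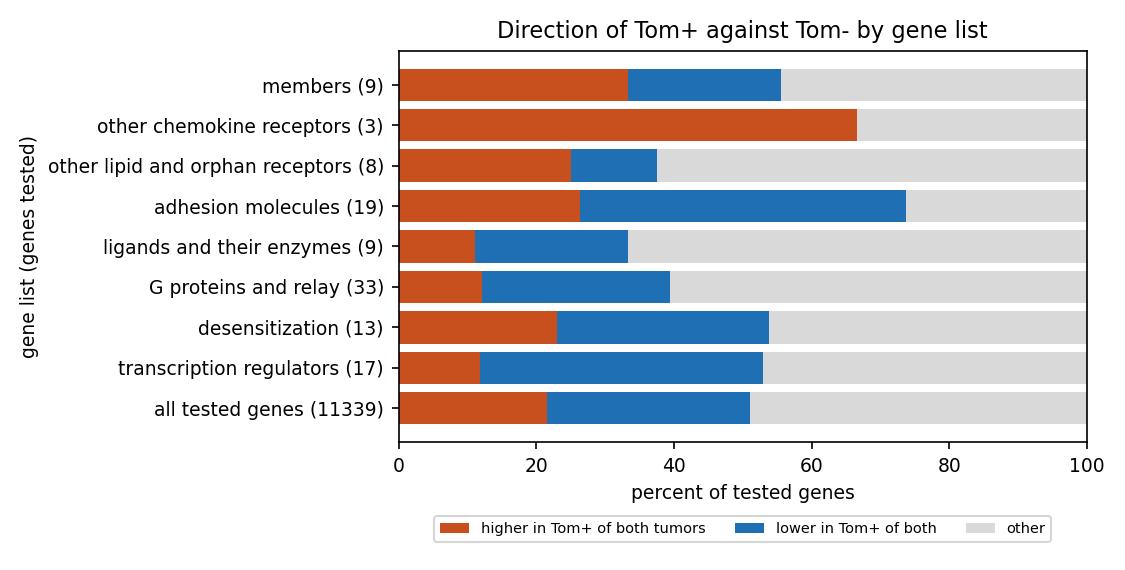
Percent of the tested genes of each list that were higher (orange) or lower (blue) in Tom+ cells of both tumors, or neither (grey), with the number of tested genes in brackets and all 11339 tested genes in the last bar. The 9 members had 3 above and 2 below, and the adhesion molecules 5 higher and 9 lower of 19, beside 21.6% and 29.5% of all genes.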

How the data were processed

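RNA was taken from B220+ IgM+ Tom+ and Tom- splenocytes of 2 λ-MYC Tom +/ki mice. Per the labels and methods, Cutadapt trimming came before quantification against GRCm38 transcripts by Salmon 1.9, and the authors deposited TPM per gene. How transcripts were summed to genes is not given in the sources used here. Symbols and positions came from GENCODE M21, which holds 34582 of the 34866 identifiers. Promoters came from RefSeq.

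Log2(TPM + 1) of the 11339 genes that reached 1 TPM in 2 or more libraries was fitted with limma 3.58.1 (R 4.3.3), with Tom status and tumor as terms, a variance trend and Benjamini-Hochberg adjustment. The tumor was kept as a block because its libraries come from the same mouse. The fit was tested on simulated data with known changes and equal noise in all genes, which does not measure its power in these libraries. The authors' edgeR test of paired samples needs counts and was not run. Python 3.11.15 drew the plots.

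The members and lists were chosen with earlier results of these data known. Text names all members and, per list, the 3 genes with the largest difference and the most abundant one. S1pr2, Ubac2, Bcl9l, genes listed at 0 and those with an unadjusted p below 0.05 were named after their values were seen. The same holds for Cnr2, Gpr18 and the markers Ighm, Mzb1, Jchain, Neil1, Il21r, Cd3d and Ly6c2. Results for some genes, a named one by this rule included, are not reported here. Scaling, filter, pseudocount, moderation, block and each tumor were varied.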

Additional observations from a re-analysis of the deposited data

Results flagged for a closer look

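For 4 members the difference between Tom+ and Tom- cells had opposite signs in the tumors. On the log2(TPM + 1) scale, Cxcr4 was at -0.25 in tumor #1 and 0.15 in tumor #2, Ccr7 at -0.080 and 0.50, S1pr4 at -0.34 and 0.038, and Klf2 at 0.19 and -0.59. With 1 pair per tumor, these differences between the tumors were not tested. Over all tested genes, the difference between the tumors' log2 fold changes had a median size of 0.33.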

How the results depend on the processing

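All 96 log2 fold changes of single members under the alternatives that kept both tumors had the sign of the reported value, and adjusted p-values from limma lay between 0.914 and 1. Changes of block, moderation or filter leave a member's log2 fold change as it was, so their signs were fixed in advance. Only changes of pseudocount or scaling, or genes left out before rescaling, could alter a sign. In each alternative that was run, 0 genes passed an adjusted p-value of 0.05. Without the replicate block, 140 genes had an unadjusted p-value below 0.05, against 530 in the paired fit, and Gpr183 then had one of 0.158. Gpr183 was below 0.05 in 8 of 10 alternatives, all fitted on the same 4 libraries, where 4.67% of all tested genes were in the reported fit. It passed the filter of that fit on its Tom+ libraries alone, so the count of alternatives adds no support. With a mean TPM of at least 5, which leaves 6 members, the counts higher and lower in both tumors were 1 and 1, and 6 of these 6 had both libraries of one tumor above the other (this last alternative was chosen after seeing the data). Members lower in both were 1 with mitochondrial genes and pseudogenes left out and 1 after quantile normalization, and the cause was not tested. Leaving out each tumor in turn gave medians of the members between -0.019 and 0.15, between 4 and 6 members higher and between 3 and 5 lower, with no test. Each of Cxcr4, Ccr7, S1pr4 and Klf2 then had the opposite sign to its mean without 1 of the tumors, and Cxcr5 was at 0.04 without tumor #2 and 0.98 without tumor #1. Depth is unknown, so low values such as those of Gpr183 and Ccr6 carry an error that could not be estimated.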
